A study of Mus musculus with 2 samples.

Results

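A set of 7 genes of the epithelial adherens junction and its surroundings were followed across the cell classes of mouse skin that carries an activated hedgehog pathway. They were Cdh1, Cdh3, Cdh13, Ctnna1, Ctnnb1, Ctnnd1 and Alcam. All 7 were chosen by name, with earlier results of these data known, and were found among the 32286 features of both libraries. Of these, Cdh1 and Cdh3 encode the classical cadherins E-cadherin and P-cadherin. Ctnna1, Ctnnb1 and Ctnnd1 encode the 3 catenins (alpha-, beta- and p120-catenin). Cdh13 encodes T-cadherin, which is held in the membrane by a lipid anchor and lacks the cytoplasmic tail that binds catenins, and Alcam (CD166) encodes an adhesion molecule of the immunoglobulin family, so neither belongs to the classical cadherins or the catenins.

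The study asked what Survivin, the inhibitor of apoptosis protein and mitotic regulator encoded by Birc5, does in the formation of basal cell carcinoma. Single epidermal cells were profiled on the 10x platform in 2 libraries, 1 per genotype. The control genotype was Involucrin-CREER/Rosa-SmoM2: Cre, inducible by tamoxifen and driven from the Involucrin promoter, turns on a YFP-tagged SmoM2, the always-active mutant of Smoothened, which transduces the hedgehog signal. The gain-of-function library (GOF) carried the same Involucrin-CREER and Rosa-SmoM2 alleles and, in addition, Krt14rtTA and Survivin GOF, by which a Krt14-driven rtTA expresses Survivin with an mCherry reporter. SmoM2 was thus shared by both groups, and no library without it was compared. The number of animals behind each library was not given in the sources used here, so every comparison is between libraries, with no replicate check and no p-value, and the intervals below cover counting error only.

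Classical cadherins join neighbouring epithelial cells by binding the same cadherin on the next cell. Inside the cell p120-catenin holds the cadherin at the surface, while beta-catenin binds the tail and links it through alpha-catenin to actin. Beta-catenin that is not bound to cadherin is degraded unless Wnt signalling is active, in which case it enters the nucleus as a coactivator of transcription. In skin, E-cadherin is found through all living layers of the epidermis, whereas P-cadherin is found mainly in basal cells and the hair follicle.

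Cells with at least 1500 genes and at most 10% mitochondrial UMIs were kept, which left 10294 control and 6494 GOF cells after removal of likely doublets. The median depth was 7648 UMIs in control cells and 12324.5 in GOF cells, so shares of cells with a UMI are given after each cell was thinned to 3000 UMIs, while levels are UMIs of a gene scaled to the summed UMIs of a class (counts per 1000000, CPM). Levels are not compared between genes, since capture differs by transcript. The libraries shared 20 of the kept barcodes. Cells were clustered without the 7 genes, and clusters were named from marker lists. Hedgehog-high cells were clusters 8, 11 and 19 (1821 control and 1036 GOF cells), basal cells were clusters 5, 7 and 9 (1551 and 1632) and suprabasal cells were clusters 3 and 15 (779 and 648). Of 14 hedgehog markers, 6, 11 and 13 were up in clusters 8, 11 and 19. Of 16 basal markers, 6, 7 and 4 were up in clusters 5, 7 and 9, and of 17 suprabasal markers, 14 and 5 in clusters 3 and 15. The hedgehog target Ptch1 was at 593 CPM (control) and 638 CPM (GOF) in hedgehog-high cells against 40.6 and 16.7 CPM in basal cells. Krt10 was at 28099 and 19390 CPM in suprabasal cells. Both genes are among the markers that named the classes, so their levels are no test of the names. Birc5 was at 14.0 CPM (control) and 914 CPM (GOF) hedgehog-high cells, higher in the library labelled GOF. The sort was for integrin alpha6-high, CD34-negative and YFP-positive cells, yet suprabasal cells were present, and YFP was at 3.5 and 1.1 CPM in basal cells against 33.3 and 30.8 CPM in hedgehog-high cells. The clusters that made up a class differed between libraries: control basal cells were 60.2% cluster 5 and GOF basal cells were 57.3% cluster 9, and cluster 19 made up 27.7% of control and 47.4% of GOF hedgehog-high cells. Sex composition differed too: of hedgehog-high cells, 1362 in control and 287 in GOF had a Y-linked UMI and no Xist UMI (male-called), while 6 and 600 had Xist and no Y-linked UMI.

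In mm10 with GENCODE vM21, Cdh3 (chr8:106510891-106557297) and Cdh1 (chr8:106603351-106670246) are neighbours on the plus strand, and Cdh13 lies farther along the chromosome (chr8:118283733-119324921). Ctnnb1 is at chr9:120929216-120960507 on the plus strand, Ctnnd1 at chr2:84600071-84650765 and Alcam at chr16:52248996-52454074 on the minus strand. All 7 are protein-coding. Ctnnd1 overlaps the gene model Gm28635 on the same strand, and Cdh13 and Ctnnb1 each overlap 1 small RNA gene on theirs, whereas Cdh1, Cdh3 and Alcam overlap no other gene. On the other strand Ctnna1 overlaps Lrrtm2 and Ctnnb1 overlaps Ulk4. No source used here says how reads in such overlaps were assigned, so the Ctnnd1 level in particular is uncertain to that extent.

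Promoter sequence from RefSeq (GRCm38.p6, 250 bases before to 50 after the start of transcription) was matched for 3 of the 7 genes, namely Alcam, Ctnnb1 and Ctnnd1. The promoters of Alcam and Ctnnb1 are shown because these 2 genes were the ones higher in hedgehog-high cells in both libraries. Each is printed 5′ to 3′ on the strand of the gene, and capitals mark the one match to the motifs searched, an E-box (CACCTG).
Alcam, chr16:52453032-52453331, minus strand: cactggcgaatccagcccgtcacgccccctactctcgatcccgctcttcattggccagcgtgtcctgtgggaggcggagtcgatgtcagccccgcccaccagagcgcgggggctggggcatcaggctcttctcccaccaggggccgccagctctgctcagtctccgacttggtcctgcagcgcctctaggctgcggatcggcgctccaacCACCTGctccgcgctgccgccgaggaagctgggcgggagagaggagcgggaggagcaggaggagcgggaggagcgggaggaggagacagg
Ctnnb1, chr9:120933150-120933449, plus strand: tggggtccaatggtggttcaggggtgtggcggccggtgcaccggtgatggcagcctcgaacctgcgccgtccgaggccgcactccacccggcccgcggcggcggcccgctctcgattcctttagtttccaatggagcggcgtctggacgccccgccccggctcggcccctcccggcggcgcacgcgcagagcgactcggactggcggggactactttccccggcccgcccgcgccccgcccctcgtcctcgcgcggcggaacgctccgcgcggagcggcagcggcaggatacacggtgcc
The motifs, searched on both strands, were the GLI site GACCACCCA, its core CCACCCA (contained in the former), the E-box CACCTG and the TCF site CTTTGAT. The E-box in the Alcam window spans bases 211 to 216, and 20.2% of 32851 promoters of this length hold one. The Ctnnb1 window printed is the first of 2 matched for this gene, and the second, chr9:120933328-120933627, overlaps it and is not printed. Neither Ctnnb1 window holds any of the 4 motifs. The GC content of the printed pair is 69.7% and 75.3%. Among the 5 windows matched, the only other match was a CCACCCA in the second Ctnnd1 window, a motif that 9.30% of promoters hold. A match is a description of these letters only.

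Against basal cells, hedgehog-high cells had far more Alcam and more Ctnnb1, and much less Cdh13, in both libraries. The cadherins Cdh1 and Cdh3 and the catenins Ctnna1 and Ctnnd1 did not pass the 1.5-fold limit in either library, although Cdh1 in control lay just under it. Cdh1 passed with the mean of per-cell CPM (log2 ratio 0.67) and in cells without a UMI of the 12 cycling markers (0.64). The latter set kept 640 of 1821 hedgehog-high and 683 of 1551 basal control cells. Of the 7 genes, 3 passed that limit in the control library (2 higher and 1 lower) and 3 in the GOF library (2 higher and 1 lower). Among all genes with at least 50 pooled UMIs, 35.4% passed it in control (28.9% higher, 6.54% lower) and 37.7% in GOF (28.3% higher, 9.34% lower), so this count is close to the background. The median log2 ratio of the 7 was 0.23 in control and 0.13 in GOF, beside 0.32 and 0.28 over all genes, and ratios are best read against that shift.

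**Figure D1:**
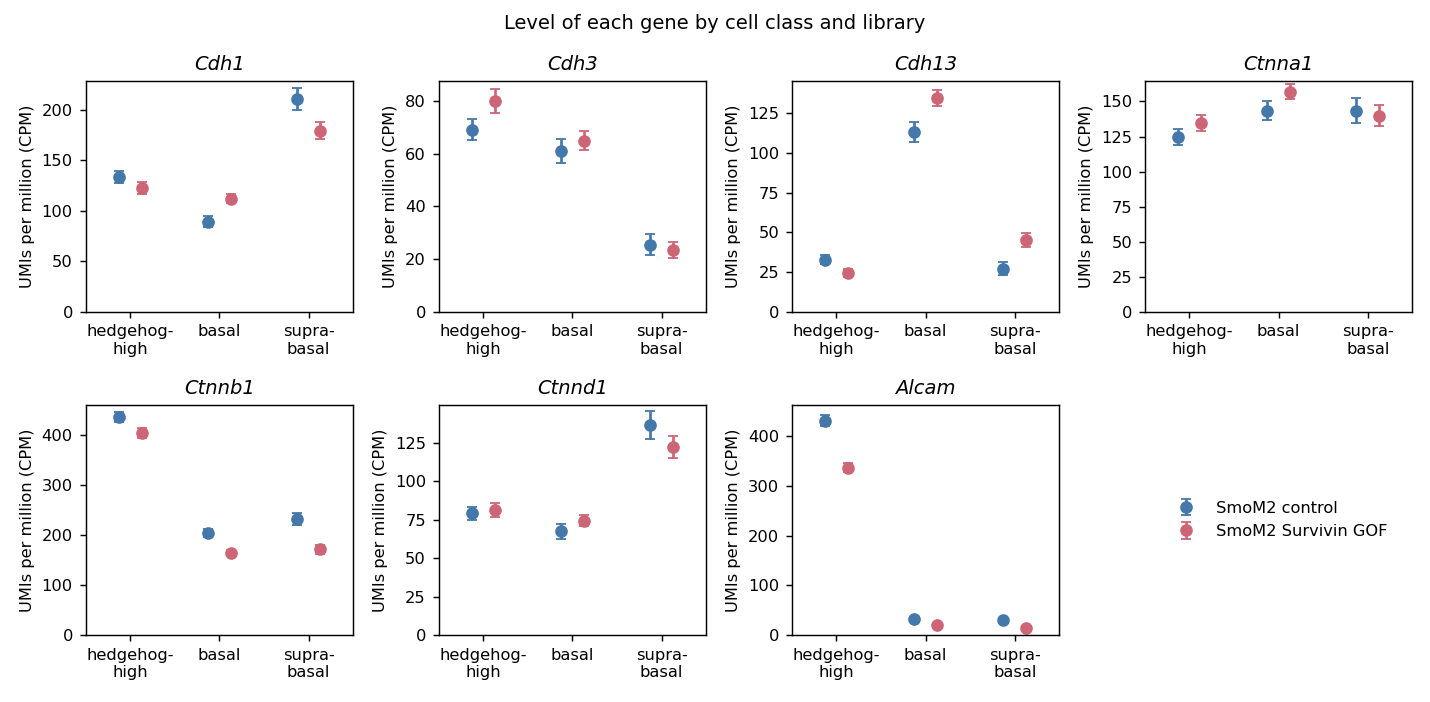
Level of each of the 7 genes (CPM, linear axis from 0) in hedgehog-high, basal and suprabasal cells, with the control library in blue and the GOF library in red. Bars are 95% Poisson intervals, which cover counting error only; Alcam stands at 430 and 335 CPM in hedgehog-high cells and at no more than 32.4 CPM in the other classes.

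Alcam had the widest range of the 7. Its level in hedgehog-high cells was 430 CPM in control (95% interval 420 to 440) and 335 CPM in GOF (326 to 344). In basal cells it was 32.4 and 21.2 CPM, and in suprabasal cells 31.1 and 14.8 CPM. The hedgehog-high level was thus 13.3-fold the basal level in control (11.95 to 14.8) and 15.8-fold in GOF (14.3 to 17.5). At 3000 UMIs a cell, 54.5% of control and 47.8% of GOF hedgehog-high cells had an Alcam UMI, against 9.98% and 6.63% of basal cells. Without thinning the hedgehog-high shares were 74.7% and 76.2%. Tail scale cells (cluster 20), with the lowest Alcam of any cluster in each library, showed a UMI in 5.91% of control and 1.19% of GOF cells, beside 8.81% and 4.63% of suprabasal cells.

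Ctnnb1 was at 437 CPM in control hedgehog-high cells (426 to 447) and 405 CPM in GOF ones (396 to 415). Basal cells had 205 and 166 CPM, and suprabasal cells 233 and 172 CPM. The hedgehog-high level was 2.13-fold the basal level in control (2.03 to 2.23) and 2.45-fold in GOF (2.35 to 2.55). A UMI was found in 72.1% and 65.7% of hedgehog-high cells at equal depth, against 46.1% and 37.6% of basal cells.

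Cdh13 went the other way. Basal cells had 113 CPM in control and 134 CPM in GOF, whereas hedgehog-high cells had 32.8 and 24.3 CPM. The log2 ratio of hedgehog-high over basal was -1.78 in control and -2.46 in GOF. At 1041 kb it is the longest of the 7 genes.

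The classical cadherins differed less between these classes. Cdh1 was at 133 and 122 CPM in hedgehog-high cells and at 89.1 and 112 CPM in basal cells, a ratio of 1.498 in control, just inside the limit, and 1.09 in GOF. Cdh3, whose gene lies 46.1 kb upstream of Cdh1 on the same strand of chromosome 8, was at 69.1 and 80.0 CPM against 61.0 and 64.9 CPM, a ratio of 1.13 and 1.23. Ctnna1 was at 125 and 135 CPM against 143 and 157 CPM, and Ctnnd1 at 79.2 and 81.3 CPM against 67.5 and 74.5 CPM. With scaling by the median of ratios in place of totals, the sign of the Cdh3 and Ctnnd1 ratios turned in control, and that of Cdh1 and Ctnnd1 in GOF.

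The 3 hedgehog-high clusters were not alike. Alcam was highest in cluster 11 (led by Ccer2 and Ncam1), at 886 CPM (control) and 717 CPM (GOF), lower in cluster 19 (led by Col14a1, Basp1 and Cilp), at 397 and 219 CPM, and lowest in cluster 8 (led by Dio2, Nptx1, Bmp3 and Pi15), at 203 and 174 CPM. In control, cluster 11 had 4.36 times the Alcam level of cluster 8 (4.09 to 4.65). Cdh13 was highest in cluster 8, at 54.8 and 45.3 CPM, and lowest in cluster 19, at 11.6 and 10.0 CPM, so cluster 8 stood 4.70-fold above cluster 19 in control (3.59 to 6.25) and 4.55-fold in GOF (3.48 to 6.01). Ctnnb1 was lowest in cluster 8, at 353 and 315 CPM, and reached 505 and 454 CPM in cluster 19. Cycling cluster 18, in which 11 of 14 hedgehog markers were up but cycling genes led, held 291 and 209 CPM of Alcam and 455 and 389 CPM of Ctnnb1.

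**Figure D2:**
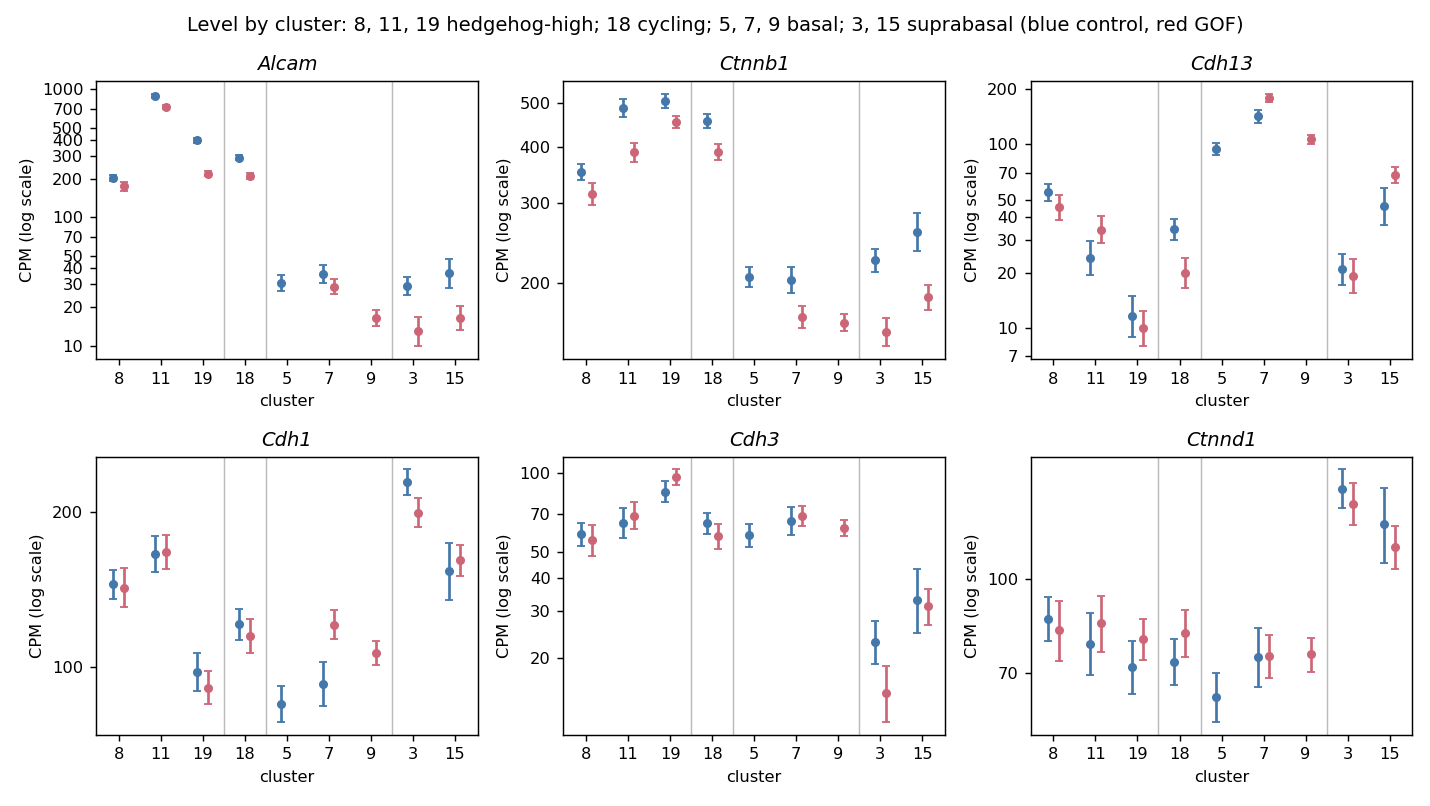
Level of 6 genes by cluster (CPM, log axis), with hedgehog-high clusters 8, 11 and 19, cycling cluster 18, basal clusters 5, 7 and 9 and suprabasal clusters 3 and 15; blue is control, red GOF, and bars are 95% Poisson intervals. Clusters 5 and 9 are drawn in 1 library only, since the other held under 50 of their cells; Alcam spans 203 to 886 CPM over the 3 hedgehog-high clusters in control.

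The balance of Cdh3 and Cdh1 moved with the cluster. Cdh3 gave 34.1% of the UMIs of the pair in control hedgehog-high cells (32.5 to 35.8, exact binomial interval) and 39.5% in GOF ones (37.8 to 41.2). Basal cells gave 40.7% and 36.7%, and suprabasal cells 10.7% and 11.6%. Within the hedgehog-high class, cluster 19 reached 46.5% and 51.3%, while clusters 8 and 11 stayed between 28.1% and 29.2%. Within clusters 8 and 11 the intervals of the libraries overlapped, and within cluster 19 they overlapped narrowly, at 43.3 to 49.6 in control and 48.8 to 53.8 in GOF. The part of cluster composition in the difference between the libraries was not tested. Since UMIs of different genes are captured with different efficiency, the share compares cells and does not give the ratio of the proteins.

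**Figure D3:**
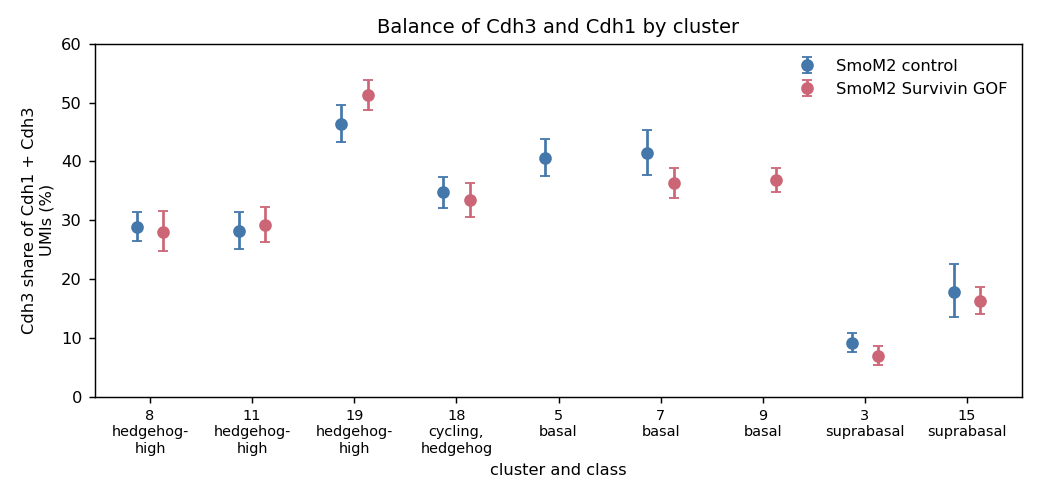
Share of Cdh3 among the UMIs of Cdh1 and Cdh3 (percent) in each cluster of the 3 classes and in cycling cluster 18, blue control and red GOF, with 95% exact binomial intervals. Cluster 19 is highest at 46.5% and 51.3%, and suprabasal cluster 3 is lowest.

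Suprabasal cells, compared with the same basal cells, had more Cdh1 and Ctnnd1 and less Cdh3 and Cdh13 in both libraries. Of the 7 genes, 4 passed 1.5-fold in control (2 higher, 2 lower) and 4 in GOF (2 higher, 2 lower), while 29.4% of all tested genes did so in control (14% higher, 15.4% lower) and 27.7% in GOF (8.8% higher, 18.9% lower). Cdh1 was at 210 CPM in control (199 to 221) and 179 CPM in GOF (171 to 187), which was 2.36-fold and 1.60-fold the basal level. Ctnnd1 was at 137 and 122 CPM, or 2.02-fold and 1.64-fold. Cdh3 was at 25.3 and 23.4 CPM, with a log2 ratio of -1.27 in control and -1.47 in GOF. Cdh13 was at 26.9 and 45.1 CPM, with a log2 ratio of -2.07 and -1.57. Ctnna1 was at 143 and 140 CPM, a ratio of 0.9995 in control (0.922 to 1.08) and 0.889 in GOF (0.834 to 0.948). Cdh1 and Ctnnd1 were high and Cdh3 low in the same class.

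The rest of the adherens junction was read from lists of related genes. These lists were chosen with earlier results of these data known, so their counts are descriptions and no test of enrichment. Among 17 junction partners, 8 were higher in hedgehog-high than basal cells in control and none lower, and in GOF 7 were higher and 1 lower, beside 28.9% and 28.3% of all tested genes that were higher. Epcam, which encodes an epithelial adhesion molecule, was at 211 and 200 CPM against 24.1 and 33.0 CPM. Nectin3, an immunoglobulin-type adhesion molecule of the junction, was at 28.6 and 21.9 CPM against 4.7 and 5.3 CPM, and Actn1, the actin crosslinker alpha-actinin 1, at 85.3 and 82.8 CPM against 27.6 and 29.7 CPM. Of 8 immunoglobulin adhesion molecules, 7 could be tested and 5 were higher in each library and 1 lower in GOF, against the same background, among them Nrcam at 268 and 266 CPM against 11.2 and 3.2 CPM, and Cadm1 at 90.0 and 89.5 CPM against 21.8 and 22.4 CPM. Cdh11, a type II cadherin best known from mesenchymal cells, was at 33.4 and 65.5 CPM against 2.1 and 1.5 CPM. Of 6 fibroblast markers, Dcn alone was high in the hedgehog-high class, at 1333 and 2377 CPM, Col1a2 was at 17.9 and 11.1 CPM, and Col1a1 and Col3a1 were under 1 CPM; their part in the Cdh11 level was not tested.

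In suprabasal cells Jup, which encodes the beta-catenin relative plakoglobin, was at 902 and 773 CPM against 324 and 413 CPM in basal cells. Ctnnal1, another catenin relative, was lower, at 12.5 and 19.8 CPM against 92.9 and 101 CPM. Of 5 catenin relatives tested, 2 were higher and 1 lower in control, and 2 higher and 2 lower in GOF. Of all tested genes, 14% were higher and 15.4% lower in control, and 8.8% and 18.9% in GOF. Of 17 junction partners, 6 were higher and 3 lower in suprabasal cells in control, and 5 higher and 3 lower in GOF. Ajuba was lower, at 22.5 and 28.6 CPM against 53.5 and 60.6 CPM. Nectin4 was higher, at 82.5 and 86.3 CPM against 11.4 and 14.8 CPM. Grhl1 and Ovol1, which encode transcription factors of epithelial differentiation, were higher as well. Grhl1 had 129 and 83.4 CPM against 23.0 and 22.9 CPM in basal cells, and Ovol1 63.7 and 55.8 CPM against 13.1 and 16.9 CPM. Of 7 regulators of cadherins tested, 3 were higher and 2 lower in suprabasal cells in control, and 3 higher and 1 lower in GOF. Snai2, a repressor of cadherin genes, was lower in both other classes than in basal cells, at 45.5 and 49.1 CPM in hedgehog-high and 30.2 and 36.5 CPM in suprabasal cells, against 71.3 and 75.0 CPM. Tcf3, from the same list of regulators, was higher in hedgehog-high than basal cells, at 87.7 and 97.7 CPM against 36.8 and 41.9 CPM. Of 7 regulators tested there, 1 was higher and 1 lower in control, and 1 higher and 3 lower in GOF. Of all genes, 28.9% were higher and 6.54% lower in control, and 28.3% and 9.34% in GOF. None of the 8 genes of the beta-catenin destruction complex passed 1.5-fold between hedgehog-high and basal cells in control, and 2 did in GOF, Amer1 and Axin2. With 35.4% and 37.7% of all tested genes past the limit, the counts for the complex are not above the background.

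**Figure D4:**
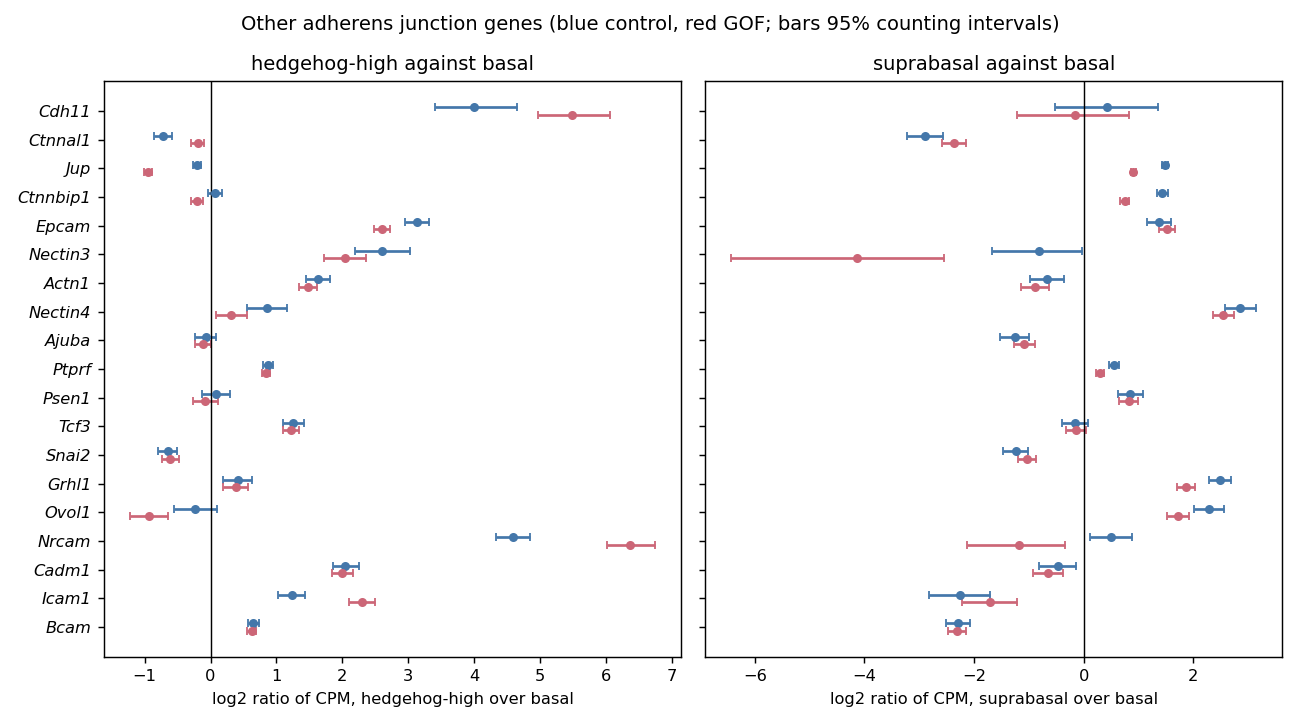
Log2 ratio of CPM of other adherens junction genes, hedgehog-high over basal (left) and suprabasal over basal (right), blue control and red GOF, with 95% counting intervals. Nrcam, Cdh11 and Epcam lie farthest to the right in hedgehog-high cells, and Nectin4 and Grhl1 in suprabasal cells.

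Between the libraries few of the 7 genes passed the limit. In hedgehog-high cells, pooled over their clusters, none of the 7 passed 1.5-fold (11.6% of tested genes did, 5.77% higher and 5.79% lower). In basal cells 1 did (10.7% of tested genes, 6.68% higher and 4.06% lower), Alcam, which was lower in GOF at a ratio of 0.654 (0.568 to 0.753). In suprabasal cells 2 did (10.2% of tested genes, 4.02% higher and 6.14% lower): Alcam at 0.476 (0.383 to 0.591) and Cdh13 at 1.68 (1.41 to 2.004). The basal ratio of Alcam rests on clusters that differ between the libraries. Within basal cluster 7 alone, the one well filled in both, it was 0.795 (0.645 to 0.982). The hedgehog-high class differed in make-up too, with cluster 8, lowest in Alcam, at 50.2% of control and 26.5% of GOF cells. Within hedgehog-high cluster 19 alone, Alcam passed 1.5-fold lower in GOF, at a ratio of 0.552 (0.518 to 0.588). Clusters 8 and 11 gave 0.854 (0.776 to 0.939) and 0.809 (0.770 to 0.851). The part of cluster make-up in the pooled ratio was not tested.

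Within each of the 18 clusters that held at least 50 cells in both libraries, Ctnnb1 was lower in GOF in 17 of 18 clusters, with log2 ratios from -0.54 to 0.04 and a median of -0.28, and no cluster reached 1.5-fold. Of 4405 genes tested in all 18 clusters, 3.72% were lower in at least 17. Alcam was lower in 16 of 18, from -1.92 to 1.16 on the log2 scale with a median of -0.43, as were 6.42% of genes in at least 16. Its exceptions were upper follicle-like cluster 2, at 168 and 193 CPM, and sebaceous cluster 16, at 53.3 and 119 CPM. Alcam passed 1.5-fold lower in 8 of the clusters and higher in 1. The same count over all genes was not made. Ctnna1 was higher in GOF in 16 of 18, but so were 25.5% of genes. The clusters come from the same 2 libraries and are not replicates of the genotype.

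**Figure D5:**
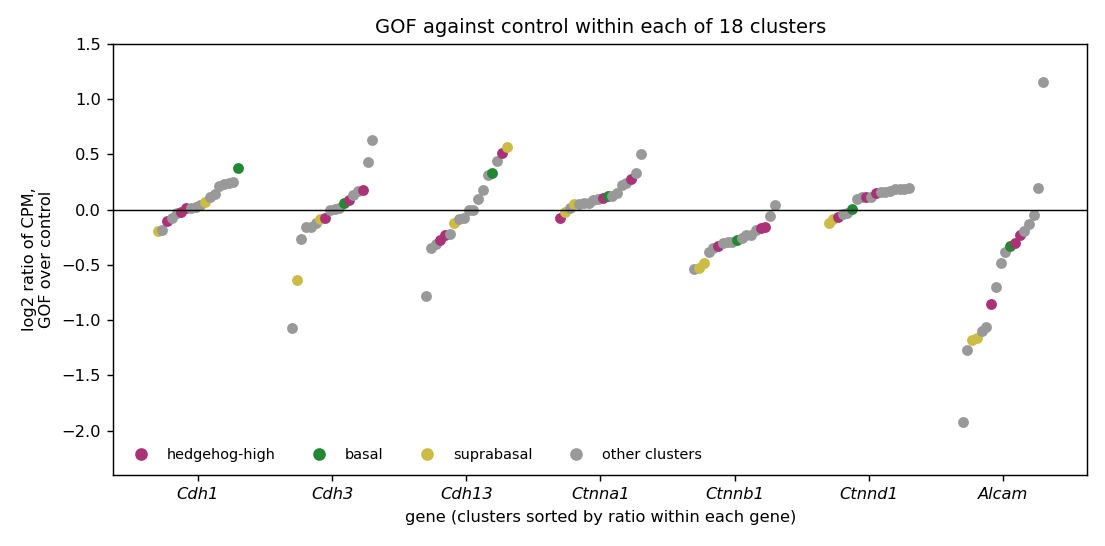
Log2 ratio of CPM, GOF over control, for each of the 7 genes within each of 18 clusters, sorted within a gene and coloured by class. Nearly all points of Ctnnb1 lie just below 0, and those of Alcam spread from -1.92 to 1.16.

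Some other genes that were high in hedgehog-high cells were also lower in GOF outside that class, and some were not. In basal cells Ptch1 was at 40.6 CPM (control) and 16.7 CPM (GOF), and Nrcam at 11.2 and 3.2 CPM. Epcam there was at 24.1 and 33.0 CPM, Cadm1 at 21.8 and 22.4 CPM and Hhip at 5.6 and 17.9 CPM. Over the 18 clusters, Ptch1 and Nrcam were each lower in GOF in 16, Cadm1 in 10 and Epcam in 8. Of the 4405 genes tested in all 18 clusters, 6.42% were lower in at least 16. Nrcam and Cadm1 are not among these genes, since they had under 50 pooled UMIs in some clusters. Barcodes under 1000 UMIs, carried 206 CPM of Alcam in control and 87.8 CPM in GOF. Their part in the Alcam difference was not tested. Among male-called cells the log2 ratio of GOF over control was -0.30 for Alcam and -0.02 for Ctnnb1 in hedgehog-high cells, -0.30 and -0.16 in basal cells, and -1.56 and -0.37 in suprabasal cells. Alcam in suprabasal cells stayed past 1.5-fold lower under each alternative cell set and scaling, from -1.56 to -0.74.

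Over 39 units, each a cluster in 1 library with at least 100 cells, the genes most like each member were found by Pearson's r of log2(CPM + 10) among 5951 genes. The units share 2 libraries and differ in depth, so r is a description. Cdh1 was most like Ablim1 (r = 0.93) and among its 3 nearest genes was Tjp1, which encodes the junction scaffold ZO-1 (0.88). Cdh3 was nearest to Serpinh1 (0.91), Cdh13 to Col16a1 (0.96), Ctnnb1 to Gtf2i (0.93), Ctnna1 to Mcl1 (0.88), Ctnnd1 to Stat6 (0.85) and Alcam to Rai14 (0.91). Among the members, the highest values were 0.82 for Cdh1 with Ctnnd1, 0.80 for Ctnna1 with Ctnnd1 and 0.75 for Alcam with Ctnnb1. With Ptch1, Ctnnb1 had 0.83 and Alcam 0.82.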

How the data were processed

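Raw UMI counts per gene and cell, deposited by the authors as 1 matrix per library, came from Cell Ranger 6.1.1, as stated per the file headers. Build mm10, Seurat 4.2.0 and R 4.3.0 appear in the submitters' processing notes. The control matrix held 24844 barcodes and 146216083 UMIs, the GOF matrix 11438 and 126329382. The labels state 8046 cells for the control, of 10000 loaded. The 10294 control cells kept here outnumber both, so they are not the same set as the cells stated. What the surplus barcodes hold was not tested. After the filters on genes and mitochondrial UMIs, 10993 and 6922 cells remained. Scrublet's automatic threshold marked 0 cells, so the highest 6% of its scores in each library were removed (699 and 428 cells). Clustering used scanpy 1.11.5 (2000 variable genes without the members, junction lists, Birc5, YFP, mitochondrial, ribosomal and sex-linked genes; 30 components, 15 neighbours, Leiden resolution 1, 27 clusters). A cluster took the marker list with the largest share of markers 2-fold up, with at least 3 up and no other list better placed in its top 10 genes. UMIs were summed per class and library. Intervals are 95% exact Poisson, conditional or Clopper-Pearson. A gene was called past 1.5-fold with at least 50 pooled UMIs. The ratio script was tested on simulated data. Named junction genes were the up to 3 per list with the largest log2 ratio past 1.5-fold in both libraries and at least 20 CPM, the 2 per list with the largest GOF difference in hedgehog-high cells, and the 3 most like each member; part of them are printed. Members and lists were chosen with earlier results of these data known. Alternatives were 11 planned and 1 added after seeing the data.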

Additional observations from a re-analysis of the deposited data

Results flagged for a closer look

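Cdh13 differed between libraries in opposite directions in 2 classes. In hedgehog-high cells its log2 ratio of GOF over control was -0.43, and in suprabasal cells 0.75, a difference of -1.18. The difference itself was not tested, since each genotype has 1 library. Within clusters the log2 ratio was -0.27, 0.51 and -0.23 in hedgehog-high clusters 8, 11 and 19, and -0.12 and 0.56 in suprabasal clusters 3 and 15. Cluster 15, which had more Cdh13 than cluster 3, made up 22.8% of control and 44.6% of GOF suprabasal cells. Its suprabasal name is the weaker, with 5 of 17 suprabasal markers up and 2 of 9 upper follicle markers. It was led by Krt7, Krt1, Klk8 and Klk7. Over both libraries it had 10308 CPM of Krt14 and 11003 CPM of Krt10, against 4120 and 31255 CPM in cluster 3.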

How the results depend on the processing

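No member's called ratio reversed under any alternative run. The number of the 7 genes past the limit between libraries changed as follows. In basal cells (1 gene) it was 0 with the mean of per-cell CPM, a 2-fold limit, Leiden resolution 0.6, male-called cells only, and clusters of under 50 cells in a library left out, and 2 with the lower of the other fold limits tried. In suprabasal cells (2 genes) it was 3 with that lower limit and 1 with the mean of per-cell CPM, a 2-fold limit, male-called cells only, and cells without a UMI of the 12 cycling markers. In hedgehog-high cells (0 genes) it was 2 with the lower of the other fold limits tried. It was 1 with male-called cells only and 1 with cells without a UMI of the 12 cycling markers. For suprabasal over basal in GOF (4 genes) it was 2 with a 2-fold limit, and 5 with the lower limit, the mean of per-cell CPM, Leiden resolution 0.6 and male-called cells only. It was also 4 without the small clusters, but there Cdh1 (log2 ratio 0.57) lost its call and Alcam (-0.96) gained one. For hedgehog-high over basal in control (3 genes) it was 4 with the lower limit, the mean of per-cell CPM and cells without a UMI of the 12 cycling markers. The counts for hedgehog-high over basal in GOF and suprabasal over basal in control did not change under any alternative. The cause was not tested, apart from the limits themselves. Of 490 member ratios over the alternatives, 397 stayed within the counting interval and 93 moved beyond it, 25 of these under median-of-ratios scaling; 20 uncalled ratios changed sign. No paired analysis was possible because each genotype has 1 library, and for the same reason no library could be left out. Depth limits the shares of cells with a UMI, above all for Cdh3, Cdh13 and Alcam in the classes where they are low.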

Other observations

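The 7 genes also varied among cells outside the 3 classes. Melanocyte-like cluster 10 had the highest Cdh3 of any cluster, at 108 CPM in control (90.5 to 128) and 121 CPM in GOF (107 to 137), and Cdh3 gave 48.7% and 47.5% of its Cdh1 and Cdh3 UMIs. Ctnnd1 was also highest there, at 148 and 144 CPM. Tail scale cluster 20 had the most Cdh1, at 257 and 279 CPM, with Cdh3 at 12.4 and 5.88 CPM, or 4.59% and 2.06% of the pair. Sebaceous cluster 16 had the lowest level of every member except Alcam in both libraries, with Cdh1 at 39.3 and 40.4 CPM and Ctnnb1 at 108 and 104 CPM. Bulge-like cluster 24 combined Cdh13 at 125 and 169 CPM with Ctnnb1 at 357 and 367 CPM, and was the cluster in which Ctnnb1 was not lower in GOF. In immune-like cluster 22, which expresses the Langerhans cell gene Cd207, Cdh1 was at 186 and 205 CPM and Alcam at 152 and 133 CPM. The keratinocyte gene Krt14 was at 19220 CPM in cluster 10 and 12427 CPM in cluster 22 over both libraries. Basal cells had 29617 CPM in control and 31183 CPM in GOF. The part of keratinocyte RNA in the levels of clusters 10 and 22 was not tested.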
